A study of Mus musculus with 12 samples.

Results

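Of the 55681 distinct probes on a mouse expression array, 16194 (29.1%) are named by a genomic interval and not by a transcript, and these interval probes are described here. They were chosen by name alone, as non-control probes whose systematic name begins with a chromosome, and no measured value entered the choice. The array design places such probes over candidate loci of long intergenic noncoding RNAs (lincRNAs). The files give an interval and a strand suffix for each probe, with no gene name and no transcript, and whether each interval lies between genes was not checked here. The scanner's grid was built on the mm9 (NCBI37) assembly, and all coordinates below are of that build. The interval names read 4610 stretches of 1 strand, or 3543 distinct coordinate pairs, of which 1067 carry probes on both strands. Where overlapping stretches are joined, 2226 separate loci remain. Forward probes numbered 8171 and reverse probes 8010, and 13 probes of 3 intervals had no strand suffix. A stretch held 1 to 10 probes (median 3), and its length started at 62 bp with a median of 10676 bp, and 1 stretch was longer than 1 Mb.

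lincRNAs are transcripts without a long open reading frame that arise outside annotated protein-coding genes. Many are spliced and polyadenylated like messenger RNAs, are present at low levels, and are restricted to few tissues, and several act on chromatin by binding histone-modifying complexes. In fat, some long noncoding RNAs are known to take part in adipocyte differentiation. Ing1 encodes a reader of histone H3 trimethylated at lysine 4, and Gadd45a encodes a stress-induced adaptor protein linked to DNA repair and active DNA demethylation, and the study set the loss of either gene beside the loss of both.

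The 12 samples were total RNA of gonadal white adipose tissue of male C57BL/6N mice aged 59 to 67 days. There were 3 arrays for each of 4 genotype labels: wildtype (WT), Gadd45a-deficient (Gadd45a-KO), Ing1-deficient (Ing1-KO), and the Gadd45a-/-;Ing1-/- double mutant (DKO), all from crosses of the 2 mutant lines. RNA of 3 animals was pooled for each array, 9 animals per genotype, so that the spread between arrays is that between pools. Fat tissue holds adipocytes, vessels and blood cells, and in such bulk RNA fewer cells of a type and less RNA per cell cannot be told apart. Each of 3 slides carried 1 array of every genotype, and the replicate number of the labels is the slide.

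The Ing1 probe followed the labels: the WT and Gadd45a-KO means of its scaled log2 signal were 12.46 and 12.55, and those of Ing1-KO and DKO were 9.40 and 9.32. The Gadd45a probe did not: it read 9.51 in WT and 9.20 in Ing1-KO, against 10.17 and 10.61 in the arrays labelled Gadd45a-KO and DKO, and whether its target sequence was removed by the deletion is not given in the sources used here. Statements on Gadd45a therefore refer to the labels. All 10 white adipocyte markers (Adipoq, Lep and Plin1 among them) were above background, and 1 of 8 epididymis markers was tested.

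A probe was counted as detected on an array where the scanner software called it well above background. On at least 3 of the 12 arrays, 8250 interval probes (50.9%) were detected, against 77.2% of probes for RefSeq mRNA accessions and 52.4% of probes for RefSeq noncoding RNA accessions. On all 12 arrays 5349 (33.0%) were detected, and 5909 (36.5%) on none. At the edge of the threshold, 388 probes were detected on exactly 3 arrays and 560 on exactly 2. After 19 of the detected probes were lost because a marked spot left them without a value on some array, 8231 interval probes of 3426 stretches and 1758 loci entered the tests, among 31456 features in all. These 8231 are the members bright enough to be tested and do not stand for all of them. No interval probe was saturated on any array.

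The share of interval probes detected per array followed the position of the array on its slide. The position is the first of the unlabelled indices in the array's barcode and is called the slide row here. On the 7 arrays of the first slide row it lay between 39.0% and 43.8%, and on the 5 arrays of the second row between 46.2% and 53.4%, so the rows did not overlap. The difference was 8.89 percentage points (exact permutation test over arrays, two-sided p = 0.00126, 0.00473 after Benjamini-Hochberg adjustment over 15 such tests). Unlike the splits by genotype, this split was added after the data were seen. Probes of mRNA accessions were split by the same rows by 4.10 percentage points. The second row held WT replicate 3, Gadd45a-KO replicates 1 and 2, Ing1-KO replicate 3 and DKO replicate 1, so every genotype lay in both rows. By genotype, the 6 arrays without Ing1 had 43.9% ± 5.12 (SD) of the interval probes detected and the other 6 had 46.2% ± 5.25, a difference of -2.31 percentage points (exact permutation p = 0.448). Between the arrays labelled without and with Gadd45a the difference was 0.981 percentage points (exact permutation p = 0.751).

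**Figure D1:**
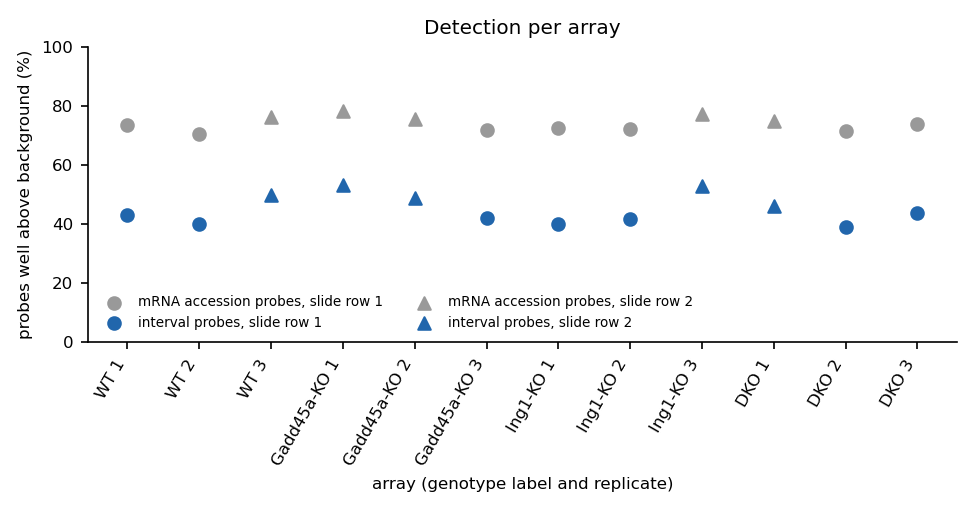
Percentage of probes called well above background on each of the 12 arrays (x axis, by genotype label and replicate), for interval probes in blue and mRNA accession probes in grey, with circles for the first slide row and triangles for the second. The 5 triangles of the interval probes lie at 46.2% to 53.4%, above all 7 circles at 39.0% to 43.8%.

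Detection differed by strand and chromosome. Reverse probes were detected on at least 3 arrays in 53.5% of cases and forward probes in 48.4%, and the reverse share was the higher one on 15 of 20 chromosomes. The gap came with the stretches probed on both strands, where it was 54.8% of 4789 reverse probes against 45.7% of 4893 forward probes. Among stretches probed on 1 strand only, forward probes were detected in 52.5% of cases and reverse probes in 51.7%. Of the 1067 stretches probed on both strands, 692 had a detected probe on both, 145 on the forward strand only, 164 on the reverse strand only and 66 on neither. The chromosomes ranged from 41.2% detected (chromosome 9) to 59.9% (chromosome 19), with chromosome 5 at 59.8% and chromosome 10 at 42.9%. By quartile of interval length the share detected was 51.0%, 52.7%, 50.7% and 49.4%, from the shortest (62 to 5176 bp) to the longest (30287 bp and over). Probes of 1 stretch share a transcript or a region and are not independent, so these shares carry no test.

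The largest set of changes followed the loss of Ing1. Averaged over both Gadd45a backgrounds (Ing1-KO and DKO against WT and Gadd45a-KO, 6 arrays against 6), 691 of 8231 tested interval probes (8.40%) passed an adjusted p of 0.05, 195 higher and 496 lower without Ing1. Among all 31456 features 16% passed (6.93% higher and 9.09% lower), so the interval probes were called less often than the array as a whole, where 20.3% of mRNA accession probes and 16.3% of noncoding RNA accession probes passed. The 6 arrays without Ing1 did not overlap the 6 others for 356 members (4.33%), against 8.29% of all features. The called probes lay in 435 stretches and 328 loci. Their log2 differences ran from -1.90 to 1.33, with a median size of 0.61, and 95 of the 691 were at least 2-fold. All adjusted p values here are from limma with Benjamini-Hochberg adjustment over every tested feature.

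The lower share of calls stood beside lower signal and, over all of them, wider spread. The median residual SD was 0.323 on the log2 scale for interval probes and 0.227 for mRNA accession probes. In quartiles of mean signal over all tested features, 5.17%, 8.98%, 14.6% and 13.4% of the interval probes were called from the dimmest to the brightest, against 7.15%, 14.9%, 21.5% and 25.4% of the other features. The interval probes thus had the lower share in each quartile, but their median SD was wider only in the brighter 2 of the 4 quartiles. It was 0.428 against 0.448 in the dimmest quartile and 0.274 against 0.286 in the next, which together hold most of the tested members, and 0.233 against 0.208 and 0.226 against 0.179 in the others. The part of signal and spread in the difference was not tested further.

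The direction of the calls depended on how the arrays were scaled. With the 75th percentile, 28.2% of the 691 calls were higher without Ing1. This share was 50.8% of 583 calls after centring on the median, 39.5% of 653 after quantile normalization, 17.0% of 746 after normexp background correction and 35.6% of 514 in the authors' deposited values. The median log2 difference of all tested interval probes was -0.10, and that of all features -0.04. The count also depended on single arrays. Omitting 1 WT array gave 336 (replicate 1) or 322 (replicate 3). Omitting 1 Gadd45a-KO array gave 384 (replicate 2) or 250 (replicate 3), and omitting 1 Ing1-KO array gave 226 (replicate 1), 459 (replicate 2) or 293 (replicate 3). Omitting 1 DKO array gave 380 (replicate 1) or 320 (replicate 2), and the remaining omissions gave 514 to 972.

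The change without Ing1 was estimated separately with and without Gadd45a, on arrays that the estimates do not share. Of the 691 called probes, 690 had the same sign in Ing1-KO minus WT and in DKO minus Gadd45a-KO. Since both estimates enter the average that called these probes, this count describes them and tests nothing. Over all 8231 tested interval probes the estimates correlated with r = 0.349, and over the other 23225 features with r = 0.544. All 691 had the same sign on each of the 3 slides. The differences within slides also make up the average that called these probes, so this count too tests nothing. For the label of Gadd45a the corresponding correlation over the interval probes was -0.257. On their own, these contrasts gave 0 called interval probes for Ing1-KO against WT (0.00318% of all features) and 601 for DKO against Gadd45a-KO. The interaction that compares them called 0. At an unadjusted p under 0.05, Ing1-KO against WT had 547 members (6.65%), against 8.61% of all features.

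**Figure D2:**
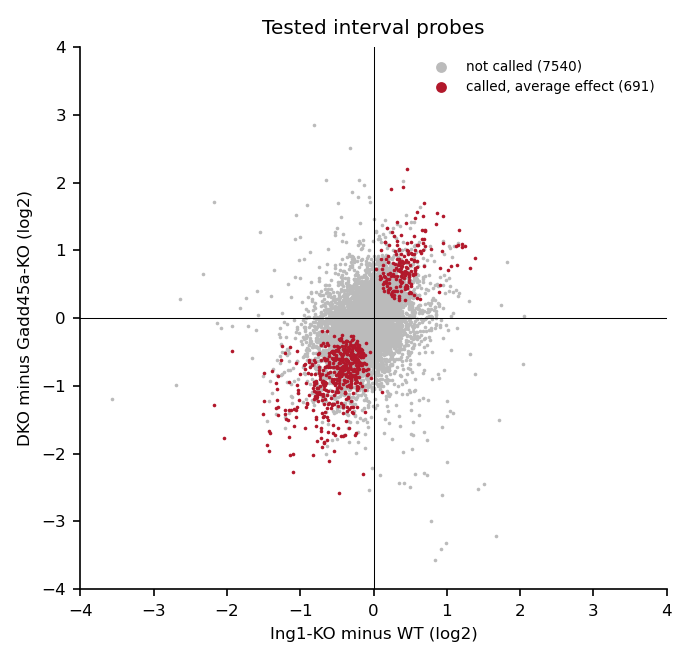
Log2 difference of Ing1-KO minus WT (x axis) and of DKO minus Gadd45a-KO (y axis) for each of 8231 tested interval probes, with the 691 probes called in the average effect in red and all others in grey. Of the red points, which the average of both axes selected, 690 have the same sign on both axes.

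Among the rises, the 3 probes of a reverse stretch at chr19:33049479-33054553 led by smallest p. Probe A_30_P01018465 read 6.38, 6.69 and 6.26 on the WT arrays, 6.51, 6.62 and 6.66 on the Gadd45a-KO arrays, 7.74, 7.44 and 7.76 on the Ing1-KO arrays and 7.64, 7.61 and 7.81 on the DKO arrays. Every array without Ing1 was above every array with it, and WT and Gadd45a-KO overlapped, as did Ing1-KO and DKO. Its log2 difference was 1.15 (SE 0.113, 2.22-fold, adjusted p = 0.0013), and it was 1.25, 0.87 and 1.33 within the 3 slides. Its neighbours A_30_P01021904 and A_30_P01021219 rose by 1.09 (SE 0.163) and 1.03 (SE 0.155), also without overlap. This stretch also gave the 1 rise that passed in DKO against WT (A_30_P01018465, 1.25, adjusted p = 0.0334).

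A second group of rises lay on chromosome 8. In the reverse stretch chr8:94841965-94881130, probe A_30_P01032525 read 4.03, 4.26 and 4.49 in WT, 4.79, 4.12 and 4.37 in Gadd45a-KO, 5.11, 4.99 and 5.28 in Ing1-KO and 6.56, 6.03 and 5.36 in DKO (log2 difference 1.21, SE 0.214, adjusted p = 0.00796). The groups with and without Ing1 did not overlap, and the 3 highest arrays were those of DKO. Of 4 tested probes of the stretch 2 were called, and the second, A_30_P01032788 (1.09, SE 0.181), and A_30_P01027299 of the overlapping reverse stretch chr8:94849929-94870274 (1.23, SE 0.223) had the same order of groups. With normexp background correction A_30_P01032525 and A_30_P01027299 no longer passed. The forward strand of the longer stretch held 5 probes, none of which was tested.

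Other rises also came several probes at a time. In the forward stretch chr12:53669892-53710742 all 4 tested probes rose without overlap, by 0.65 to 1.12 on the log2 scale, with A_30_P01029847 the largest (SE 0.222, adjusted p = 0.0116). None of the 6 reverse probes of that stretch was tested. In the reverse stretch chr3:57416618-57429679 the 3 probes rose by 1.02, 0.87 and 0.92. In the reverse stretch chr15:8463685-8494960 the 3 probes rose by 0.81, 0.66 and 0.53. In both, the mean was highest in DKO for every probe.

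The falls were led by 3 probes of a 640-bp reverse stretch at chr10:39405900-39406539. Probe A_30_P01021760 read 8.54, 8.20 and 8.74 in WT, 8.33, 8.44 and 8.82 in Gadd45a-KO, 7.16, 6.87 and 7.16 in Ing1-KO and 7.22, 6.43 and 6.97 in DKO. The arrays without Ing1 were all below the others, with DKO replicate 2 the lowest. The log2 difference was -1.54 (SE 0.157, 2.92-fold, adjusted p = 0.0013), and the probe also passed in DKO against WT (-1.63, adjusted p = 0.0338). The other probes fell by 1.66 (A_30_P01021242, SE 0.217) and 1.37 (A_30_P01025767, SE 0.217) on the log2 scale. The stretch lies inside the longer stretch chr10:39383665-39442690, whose 6 tested reverse probes had smaller differences of -0.75 to -0.29, 2 of them called, and whose 2 tested forward probes had -0.75 and -0.50, 1 of them called. A further forward stretch inside it, chr10:39386908-39390947, had 2 of 3 probes called, and its 3 differences lay between -0.78 and -0.74.

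On the same chromosome, another fall was seen in the forward stretch chr10:93774693-93893616. Probe A_30_P01020902 read 11.02, 10.75 and 10.99 in WT, 10.89, 10.98 and 11.41 in Gadd45a-KO, 10.01, 10.54 and 10.37 in Ing1-KO and 10.01, 9.38 and 10.13 in DKO. All arrays without Ing1 lay below the others. The 3 probes of the stretch fell by 0.93, 0.93 and 0.90 on the log2 scale (adjusted p = 0.00667, 0.0062 and 0.00598). The overlapping reverse stretch chr10:93819821-93976621 had 2 tested probes, both called, at -1.19 and -0.77, and its 1 tested forward probe was called at -0.90. Other stretches of this locus differed: the reverse stretch chr10:93975406-93977476 had 3 positive differences (0.58 to 0.75), 2 of them called, and the forward stretch chr10:93871635-93873477 had 3 negative ones (-0.45 to -0.12), none called.

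On chromosome 1, reverse stretches at chr1:85304494-85305390 and chr1:85310067-85323941 had all 6 probes called lower. Probe A_30_P01023639 read 5.94, 5.36 and 5.54 in WT, 5.92, 6.00 and 6.09 in Gadd45a-KO, 4.78, 4.68 and 3.95 in Ing1-KO and 4.04, 3.57 and 4.35 in DKO (log2 difference -1.58, SE 0.201, adjusted p = 0.00309), with no overlap. The 3 probes of the shorter stretch fell by 1.26, 1.30 and 1.26 on the log2 scale, and DKO replicate 2 was lowest for each (6.78, 6.61 and 6.34). Both stretches lie inside the reverse stretch chr1:85300475-85331475, whose 3 tested probes had smaller differences of -0.84 to -0.27, 1 of them called. Without overlap fell also A_30_P01026202 of the reverse stretch chr1:85117750-85129200, which was not well above background on any array without Ing1 and was detected on 3 of the 6 others. Its fall was 1.58-fold with the arrays without Ing1 set no lower than their background floor, the lowest value above background on that array. Readings below background entered the mean of the 6 others, so this is not a strict bound. In the authors' deposited values this probe did not pass. By the same measure A_30_P01019764 of the reverse stretch chr1:87374975-87412500, detected on 3 of the 6 arrays with Ing1, fell 1.06-fold. Both met the detection filter only through arrays with Ing1, where they were higher, so their calls are given without a p.

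DKO replicate 2, lowest in these falls on chromosome 1, also had the lowest mean of the 10 T cell markers, 1.34 below the mean over arrays on the log2 scale (range of the arrays -1.34 to 0.68). It was lowest for the 5 B cell markers as well (-1.19). By group the T cell deviations ran from 0.03 to 0.54 in WT, 0.29 to 0.68 in Gadd45a-KO, -0.39 to 0.22 in Ing1-KO and -1.34 to -0.01 in DKO. Of these 10 T cell markers, 7 were called lower without Ing1 and 0 higher, and their median difference was -0.74. Over all features, 9.09% were called lower and 6.93% higher in this average. Of 6 neutrophil markers 5 were called lower, with a mean deviation of 4.00, 2.71 and 0.88 on the Gadd45a-KO arrays, against 0.56, -0.11 and -1.53 on the WT arrays and -1.79 to 0.26 on those without Ing1. Their median difference was -0.23 in Ing1-KO against WT and -3.82 in DKO against Gadd45a-KO. Of 10 white adipocyte markers 3 were called higher and 0 lower. Skeletal muscle markers stood high on Ing1-KO replicate 1 (4.42), DKO replicate 1 (2.63) and Gadd45a-KO replicate 1 (1.51), and none of the 9 was called. B cell, macrophage, mesothelial, endothelial, epididymis and testis germ cell markers had 0 or 1 call each in either direction. The part of these markers in the interval probes' differences was not tested.

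**Figure D3:**
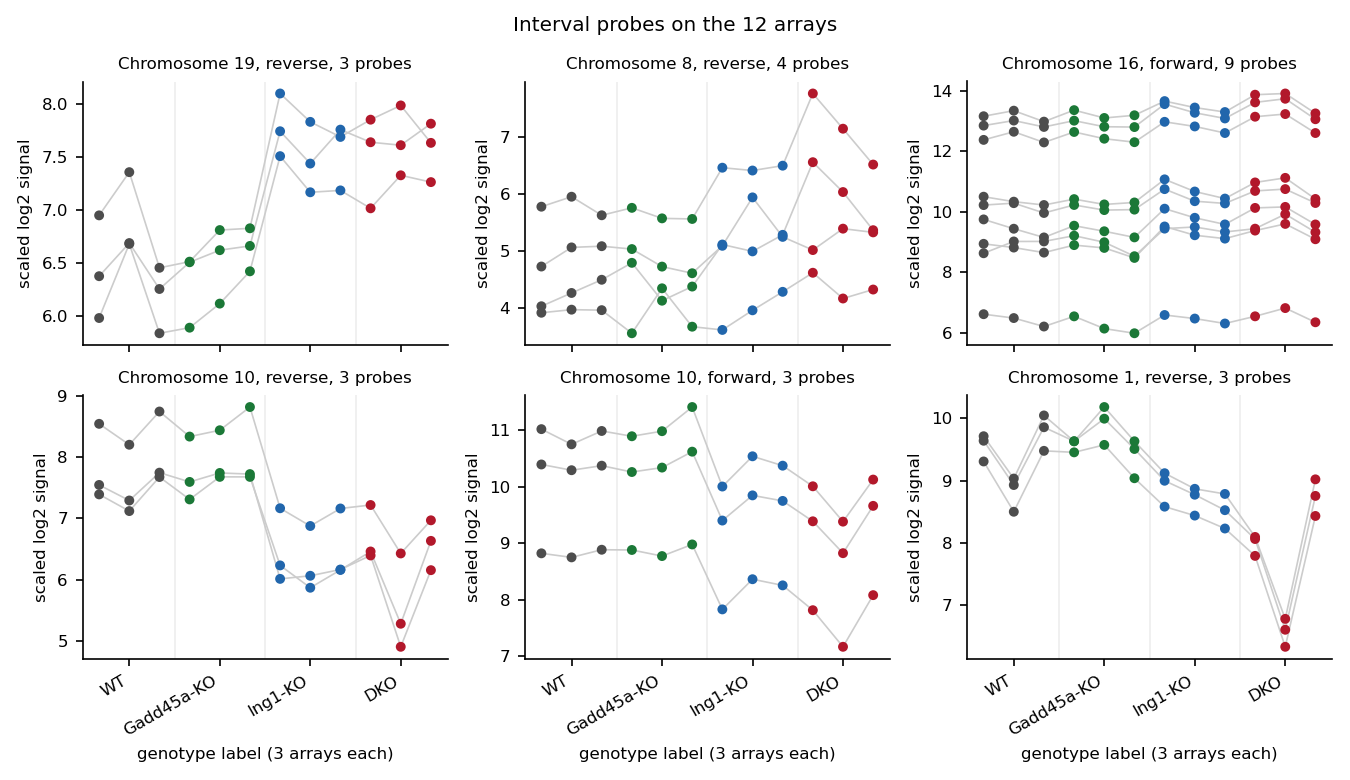
Scaled log2 signal (y axis) on the 12 arrays (x axis, 3 for each genotype label, in replicate order) of every tested probe of 6 stretches, with a line joining the points of 1 probe. The upper panels show stretches higher without Ing1 and the lower panels stretches lower without it. In the chromosome 1 panel all 3 probes are lowest on DKO replicate 2, and in the chromosome 8 panel 2 of 4 probes were called.

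Several stretches tested on both strands had calls on 1 strand. The forward stretch chr16:43623581-43642715 had 9 tested probes, all with a positive difference (0.18 to 0.59), and 7 were called higher without Ing1. Its 10 reverse probes had differences from -0.43 to 0.15 and none was called. Within slide 1 their Ing1 differences ran from -1.29 (A_30_P01031262) to 0.53 (A_30_P01021874). Single arrays stood out for A_30_P01027868, which read 8.23 on WT replicate 2 and 7.38 on Gadd45a-KO replicate 3, against 5.83 to 7.14 on the other arrays. In the stretch chr7:88668948-88678046 the 3 reverse probes were called higher (0.65 to 0.73), and none of 5 forward probes was called. Of these, 4 had negative differences, and A_30_P01022553 had 0.92 (SE 0.359), larger than that of any of the called reverse probes. In chr2:72818943-72826893, 3 of 7 forward probes were called lower, while 2 forward differences were positive (median of the 7, -0.16). None of its 4 reverse probes was called, but all 4 differences were negative (-0.61 to -0.05, median -0.31). In chrX:20555593-20591971, 2 of 3 forward probes were called higher and neither of 2 reverse probes was. In the stretch chr15:61984389-62102500 both strands had falls: 2 of 5 forward probes and 1 of 5 reverse probes were called lower and all 10 differences were negative. Its forward probe A_30_P01029551 read 7.85, 7.64 and 7.88 in WT, 7.63, 7.83 and 7.95 in Gadd45a-KO, 7.13, 7.42 and 7.16 in Ing1-KO and 6.87, 6.83 and 6.86 in DKO (log2 difference -0.75, SE 0.103). It was among the 3 that passed in DKO against WT (-0.94, adjusted p = 0.0356), and the DKO arrays were its 3 lowest. The difference between strands was itself not tested in any of these stretches.

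The stretches with 10 tested probes showed how far probes of 1 stretch can differ. In the reverse stretch chr13:41337973-41379821, 4 of 10 probes were called higher without Ing1 (A_30_P01023211 at 0.84, SE 0.125, adjusted p = 0.00543) while 5 had negative differences, none called. A_30_P01018826 of that stretch had a difference of -0.02 (SE 0.134). The reverse stretch chr10:126818382-126856582 had 10 negative differences (-0.63 to -0.08) and none called. The reverse stretch chr12:72103832-72116875 had 10 negative differences, of which 1 was called, and chr14:65431652-65437902 had 8 positive and 2 negative, none called.

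Over all tested interval probes, 2128 stretches had at least 2 tested probes. The 10294 pairs of probes within a stretch had the same sign of the Ing1 difference in 75.3% of cases, with a correlation of 0.558 across pairs. Of these stretches 357 had a called probe: in 166 at least 2 were called, in 50 every tested probe was, and in 294 all tested probes had the same sign. Of the 734 probes that were not called but shared a stretch with a called one, 644 (87.7%) had the sign of the call. Between the strands of a coordinate pair the agreement was lower: the mean differences of forward and reverse probes correlated at 0.182 over 690 pairs and had the same sign in 61.6%. Probes of a stretch share the array, and overlapping targets can share RNA, so these figures are descriptions.

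No interval probe was detected on all 6 arrays of one Ing1 state and on none of the other. With 1 exception allowed on each side, 42 probes were detected on 5 or 6 arrays with Ing1 and on 0 or 1 without it, and 4 the other way. The same count over all features is not given here, so these counts are not a result particular to the interval probes. The slide rows, by which detection differed, also did not hold equal numbers of arrays with and without Ing1. Among the 4 was A_30_P01028073 of the forward stretch chr8:13200727-13207714, which read 3.75, 4.33 and 3.25 in WT, 3.71, 3.81 and 2.30 in Gadd45a-KO, 3.29, 4.81 and 4.61 in Ing1-KO and 5.55, 5.60 and 5.26 in DKO. It was well above background on 5 of the 6 arrays without Ing1 and on none of the others. With the others set no lower than their background floor, its rise was 1.80-fold. It met the detection filter only through the arrays where it was high, so its call is given without a p. Among the 42, A_30_P01019034 of the forward stretch chrX:6942702-6954713 was detected on 5 of 6 arrays with Ing1 and on 1 without it. The groups did not overlap, and its fitted fall of 1.56 on the log2 scale rests in part on values below background. In DKO against Gadd45a-KO its fall was at least 1.47-fold. This probe too met the detection filter only through the arrays where it was high, so its call is given without a p. It did not pass with normexp background correction.

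By chromosome, the share of tested interval probes called without Ing1 ran from 5.32% (chromosome 8, which carries Ing1) to 14.5% (chromosome 19). With the arrays scaled to a common percentile, falls were in the majority on 19 of 20 chromosomes. On chromosome 17 all 31 calls were falls, and on chromosome 11 falls were 48 of 50. Chromosome 16 was the exception, with 19 rises and 8 falls, and 7 of the rises came from the forward stretch chr16:43623581-43642715. The overlapping forward stretches chr16:43623175-43624069 and chr16:43635730-43639104 gave 2 more rises each, so much of the exception came from 1 locus. These directions hold for that scaling only. Over all chromosomes, centring on the median gave 296 rises and 287 falls, and quantile normalization gave 258 rises and 395 falls. The direction by chromosome was not tested under other scalings. Of the 50 interval probes with the smallest p, 3 lay on chromosome 8, which held 6.39% of those tested. Called shares by strand were 8.01% forward and 8.76% reverse, and by quartile of interval length 7.50% to 9.03%.

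**Figure D4:**
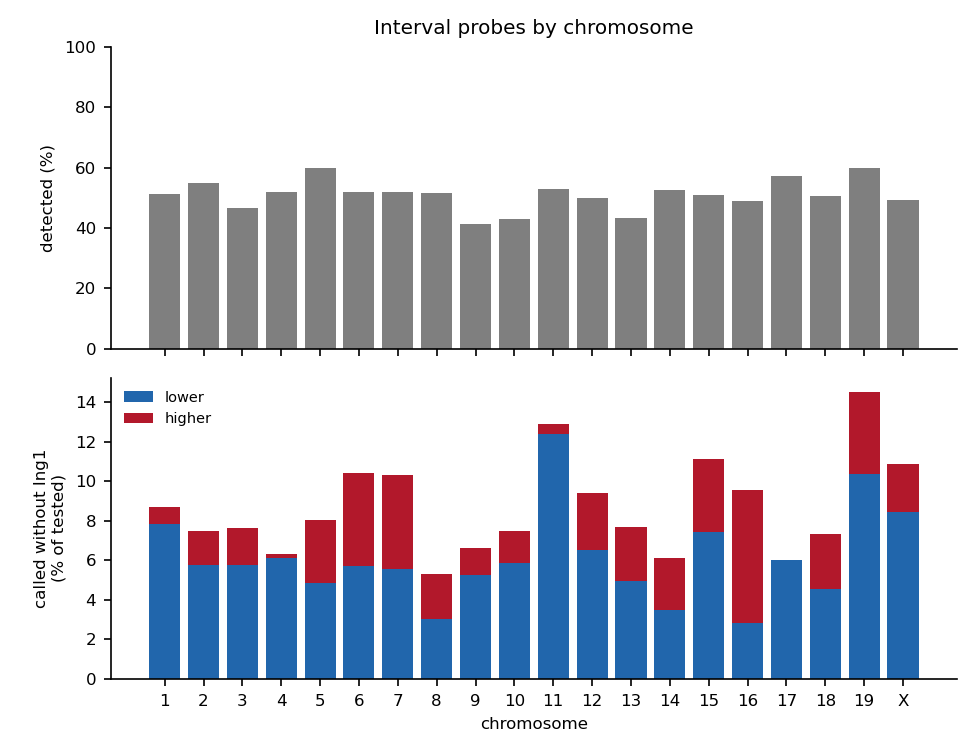
Upper panel: percentage of interval probes detected on at least 3 of 12 arrays, by chromosome. Lower panel: percentage of tested interval probes called without Ing1 in the average effect, with lower calls in blue and higher calls stacked in red, where chromosome 19 has the tallest bar (14.5%) and chromosome 16 is mostly red (19 of 27 calls). The directions are those with the arrays scaled to a common percentile.

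In DKO against Gadd45a-KO, 601 interval probes (7.30%) passed, 188 higher and 413 lower, against 15% of all features (6.49% higher and 8.47% lower), and 446 of the 601 were also among the 691. For the 12 probes named in this comparison, 80 of 264 values under other settings were no longer called. Omitting 1 Gadd45a-KO array gave 362 (replicate 1), 102 (replicate 2) or 37 (replicate 3) calls, and omitting 1 DKO array gave 99 (replicate 1), 57 (replicate 2) or 958 (replicate 3). The count was 387 (Ing1-KO replicate 2), 361 (Ing1-KO replicate 3) or 913 (WT replicate 2) when arrays outside the contrast, which enter the shared spread, were omitted, and 449 to 534 for the remaining ones. The groups of this contrast did not overlap for 2169 members (26.4%), against 37.3% of all features. Among the rises was that of A_30_P01028073 on chromosome 8, given as at least 2.81-fold because it was below background on the Gadd45a-KO arrays.

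The 4 largest fitted falls of this comparison, none of them measured above background on all DKO arrays, were single probes on 4 chromosomes that were high and low on the same arrays. A_30_P01026287 (reverse, chr8:49911596-49912196) read 3.56, 4.80 and 4.66 in WT, 4.75, 6.18 and 7.94 in Gadd45a-KO, 7.13, 5.73 and 2.68 in Ing1-KO and 1.73, 2.44 and 3.99 in DKO, a fall of 3.57 on the log2 scale (SE 1.05, adjusted p = 0.0421). Because it was below background on every DKO array, its fall is given as at least 4.41-fold. A_30_P01030043 (forward, chr9:65647428-65677009), A_30_P01026584 (forward, chr16:57811599-58042454) and A_30_P01027915 (forward, chr19:54011403-54018978) were lower too. The last was below background on every DKO array and fell at least 4.76-fold. The others were above background on 1 of 3 DKO arrays, with fitted falls of 3.41 and 3.32 on the log2 scale. All 4 were highest on Gadd45a-KO replicate 3 and next on Ing1-KO replicate 1, so that the arrays of 1 genotype were far apart. They did not pass in the Ing1 average (adjusted p = 0.225 to 0.251). Of the 3 tested probes of the stretch on chromosome 19, A_30_P01027915 alone passed in this comparison, and the others had differences of -0.50 (SE 0.287) and -0.09 (SE 0.233).

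DKO against WT called 3 interval probes (0.162% of all features passed), named above, 1 higher and 2 lower (0.0827% and 0.0795% of all features), and its groups did not overlap for 1474 members (17.9%), against 22.3% of all features. This count was 76 with the slide as a block and 0 with the slide row as a block. It was 129 without WT replicate 2, 422 without DKO replicate 3, 23 without Gadd45a-KO replicate 3, 3 without Ing1-KO replicate 1, 1 without DKO replicate 1 and 0 without any of the other 7 arrays. The F test over the 4 genotypes called 61 interval probes (1.99% of all features), 58 of which were also called in the Ing1 average. It called 120 with the slide as a block and 11 with the slide row as a block. Without 1 array it called 310 (DKO replicate 3), 160 (WT replicate 2) or 2 to 12 (each of the others). Counts of 0 were found, all with limma, for Gadd45a-KO against WT (0% of all features) and DKO against Ing1-KO (0.00318%). They were also found for the Gadd45a average (0.00318%) and the interaction (0%). At an unadjusted p under 0.05, Gadd45a-KO against WT had 137 members (1.66%), against 2.35% of all features. DKO against Ing1-KO had 277 (3.37%), against 3.51%. The Gadd45a average had 76 (0.923%), against 0.935%, and the interaction 346 (4.20%), against 5.93%. Groups that did not overlap were found for 554 members (6.73%) in Gadd45a-KO against WT, where 8.13% of all features had them, and for 8 members (0.0972%) in the Gadd45a average, against 0.0636%.

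No interval probe passed for the label of Gadd45a. Of the 10 with the smallest p, 9 were on chromosome 6, which carries Gadd45a and holds 6.17% of the tested interval probes, and of the 50 smallest 13 were. Probes of the same or of overlapping stretches are counted singly here. Some of those named below met the detection filter only through the group where they were high, so these counts are descriptions. Probe A_30_P01022870 of the forward stretch chr6:67016874-67030651 read 5.23, 3.65 and 4.63 in WT and 4.93, 4.68 and 5.43 in Ing1-KO, against 1.79, 2.81 and 2.48 in Gadd45a-KO and 1.98, 2.90 and 2.04 in DKO. The 6 arrays labelled without Gadd45a were all below background and below the 6 others, 4 of which were above it. With the 6 lower arrays set no lower than their background floor, the difference was 1.73-fold, which is not a strict bound. It was not called in the Gadd45a average, and the log2 difference was -3.20, -1.31 and -2.77 within the 3 slides. The F test over the 4 genotypes called this probe and 1 of the 2 tested probes of the stretch named next. As this probe met the filter only through the group where it was high, its F call is a description only. A_30_P01033259 of the forward stretch chr6:67054389-67054857, on the same chromosome, read 1.64 to 3.37 on the arrays labelled without Gadd45a and 4.07 to 5.53 on the others, and was at least 1.49-fold lower, also not called. It was above background on 3 of those 6 arrays. Both probes met the detection filter only through arrays labelled with Gadd45a. A second probe of that stretch, A_30_P01022182, had a difference of -0.99.

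Smaller differences in the other direction came from the forward stretch chr6:54591416-54597566 and the stretch chr6:54595084-54595833 inside it. All 5 tested probes of the first had positive Gadd45a differences of 0.30 to 0.38, and A_30_P01021456 read 9.35, 9.16 and 9.26 in WT, 9.74, 9.67 and 9.58 in Gadd45a-KO, 9.73, 9.57 and 9.50 in Ing1-KO and 9.96, 10.09 and 9.74 in DKO. WT was lowest and DKO highest, with both single mutants between them, and 3 of the 5 probes were called higher without Ing1. A_30_P01022963 of the inner stretch had a difference of 0.36 (SE 0.0832), and its values labelled without Gadd45a (8.89 to 9.32) did not overlap the others (8.47 to 8.85). The single probe of the reverse stretch chr6:57695178-57695277, A_30_P01021271, passed background on 5 of the 6 arrays with the Gadd45a-null label and on none of the others. With the others set no lower than their background floor, it was 1.22-fold higher on the arrays with that label. It too met the filter through the group where it was high. For none of these is a call made for the label of Gadd45a.

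**Figure D5:**
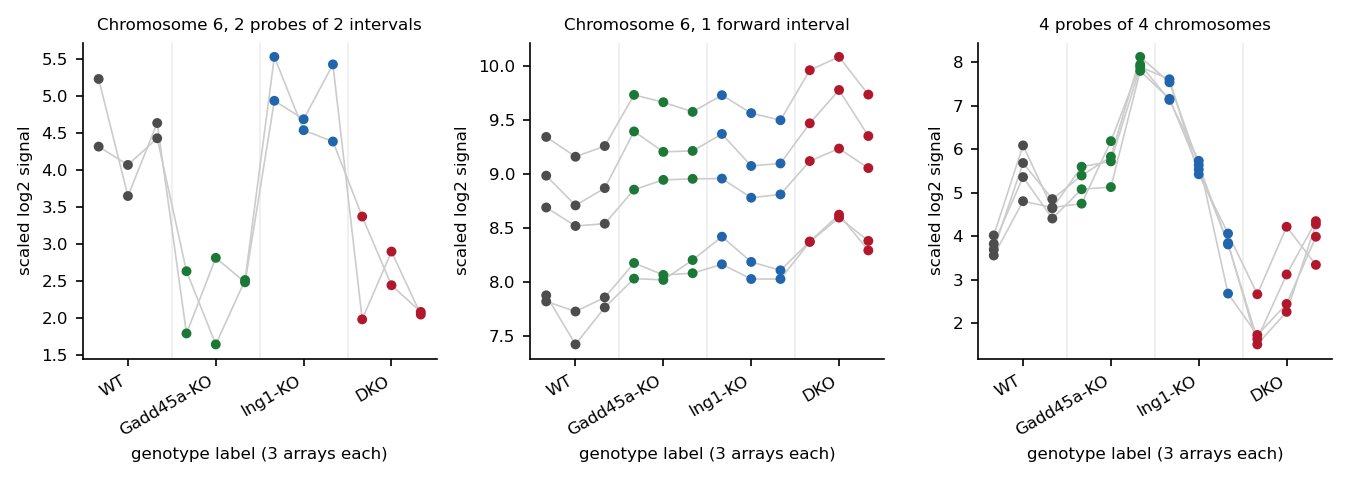
Scaled log2 signal (y axis) on the 12 arrays (x axis, 3 for each genotype label), with a line joining the points of 1 probe. Left: A_30_P01022870 and A_30_P01033259 are lower on the 6 arrays labelled without Gadd45a. Middle: 5 probes of the forward stretch chr6:54591416-54597566 have their lowest mean in WT and their highest in DKO. Right: 4 probes of 4 chromosomes share high values on Gadd45a-KO replicate 3 and Ing1-KO replicate 1.

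For the interaction, the change without Ing1 in the absence of Gadd45a less that in its presence, the smallest p values belonged to 3 probes of the forward stretch chr8:19792940-19798868. Probe A_30_P01023644 read 12.73, 12.45 and 12.72 in WT, 12.80, 12.73 and 13.01 in Gadd45a-KO, 12.93, 13.11 and 12.97 in Ing1-KO and 12.47, 12.34 and 12.37 in DKO. It was highest in Ing1-KO and lowest in DKO in the mean. The interaction was -0.82 (SE 0.161, adjusted p = 0.728), and it was -0.85 for both other probes. Also among the smallest were A_30_P01024238 (-1.20) and A_30_P01024852 (-0.86) on chromosome 10, and both were lowest on the 3 DKO arrays. None passed.

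Long noncoding RNAs known by gene name were compared with the same fit. Of 71 such genes listed, 39 were on the array and 33 were tested. Without Ing1, 7 of the 33 were called lower and 1 higher, with a median difference of -0.18, and 0 passed the F test, where the shares over all features were 16% and 1.99%. Dleu2, the noncoding gene of the Mir15a and Mir16-1 cluster, fell by 0.53 (SE 0.115, adjusted p = 0.0155). It read 9.11, 9.28 and 8.89 in WT, 8.76, 8.73 and 9.26 in Gadd45a-KO, 8.50, 8.72 and 8.49 in Ing1-KO and 8.47, 8.31 and 8.36 in DKO, all below the arrays with Ing1. Kcnq1ot1, the antisense RNA of an imprinted cluster, fell by 0.38 (SE 0.0874) and Pvt1, next to Myc in the genome, by 0.51 (SE 0.122). The snoRNA host genes Snhg12 and Snhg16 fell by 0.44 (SE 0.0969) and 0.43 (SE 0.0978), and the abundant nuclear RNA Malat1 and the host gene Snhg15 were called lower too. Mir99ahg, host of the Mir99a and Let7c cluster, rose by 0.78 (SE 0.192, adjusted p = 0.0231). Of 20 chromatin factors that bind or act with such RNAs, 1 was called lower, the maintenance DNA methyltransferase Dnmt1 (-0.43, SE 0.122, adjusted p = 0.0355), and 0 higher. The shares over all features were 9.09% lower and 6.93% higher.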

How the data were processed

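Each of the 12 one-colour Agilent arrays held Cy3-labelled RNA. The authors deposited the scanner output of Feature Extraction 10.7.3.1, whose background-subtracted intensity per spot was used, and a table of processed log2 values with 9299 interval probes, used as an alternative. The submitters' processing notes name limma 3.26.9. Here intensities were taken to log2, marked spots were left out (94 probes, 35 of them interval probes, lost all value on some array), spots of a probe were averaged, and arrays were shifted to a common 75th percentile. Features well above background on at least 3 arrays were kept, with 1 probe per RefSeq-named gene. limma 3.58.1 fitted 4 group means with trended, robust empirical Bayes moderation and Benjamini-Hochberg adjustment over 31456 features at 0.05. The number of arrays limits precision. On simulated data with 31456 features, 2-fold changes were called in 50% (Gadd45a-KO against WT), 43% (Ing1-KO against WT) and 53% (DKO against WT) of cases and 4-fold changes in 80%, 81% and 80%, with 6, 6 and 3 false calls. The changed features were drawn from all tested features, with normal noise independent between features. Recovery was not counted for interval probes alone and the Ing1 average was not simulated, so these shares describe neither.

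The members and gene lists were chosen with earlier results of these data known. Probes are named where they led a comparison by smallest p or largest change among called, non-overlapping probes, with the other probes of their stretches, and genes from the lists. Replicate numbers mark the slide per the file headers. Same-numbered arrays deviated together (correlation over 0.1) in 9 of 18 pairs. Alternatives changed background correction, scaling, filter, moderation, the slide and slide row as blocks, and left out each array.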

Additional observations from a re-analysis of the deposited data

How the results depend on the processing

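The F test called 61 interval probes, and 29 with no filter on dim probes, 21 with plain empirical Bayes, 120 with the replicate number (the slide) as a block and 11 blocked by array row. DKO against WT called 3, and 26 with normexp, 1 with plain empirical Bayes, 76 with the replicate block, 0 with the array row and 0 with the replicate block and array row together, a pairing of settings chosen after seeing the data. Ing1-KO against WT called 0, and 1 under quantile normalization, 1 with centring on the median and 1 with every probe tested. With no filter, DKO against Gadd45a-KO called 344 and the Ing1 average 450. The replicate block gave 895 calls for the Ing1 average, 673 of them shared with the 691, and 814 for DKO against Gadd45a-KO, both within 1.5 times the reported counts. Leaving out 1 array gave 226 to 972 for the Ing1 average, 37 to 958 for DKO against Gadd45a-KO, 0 to 422 for DKO against WT, 2 to 310 for the F test, 0 to 4 for Ing1-KO against WT and 0 to 2 for DKO against Ing1-KO. It moved the Ing1 difference in detected share between -4.10 and -0.866 percentage points and the Gadd45a difference between -0.591 (reversed, without Gadd45a-KO replicate 1) and 2.64. Over the 45 named probes in 59 comparisons, 1201 alternative values kept the call or its absence, 118 lost it, 7 gained it and 0 turned sign. The losses were uneven: 80 of 264 values for the 12 probes of DKO against Gadd45a-KO and 4 of 430 for the 19 of the Ing1 average. The cause of these changes was not tested. Dim probes limit what could be seen: 36.5% of the interval probes were above background on no array.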

Other observations

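The high values of Gadd45a-KO replicate 3 and Ing1-KO replicate 1 recurred beyond the 4 interval probes that fell most in DKO against Gadd45a-KO. These 4 correlated at 0.913 to 0.987 with each other over the 12 arrays. Of 31456 tested features, 49 correlated with their mean at more than 0.9, these 4 included. The other 45 were 14 interval probes and 31 other features, among them Wfdc6b, Vmn1r197, Oxct2b, Neurod2 and Chrm4. The median log2 signal of the 49 was 7.94 on Gadd45a-KO replicate 3 and 7.37 on Ing1-KO replicate 1, against 3.74 on DKO replicate 1. Of the 49, 36 were detected on fewer than 12 arrays, 8 were called in DKO against Gadd45a-KO, among them the 4 that chose the set, and 0 in the Ing1 average. This set was chosen after its values were seen.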
